A study of Mus musculus with 12 samples.

Results

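The genes described here were low 3 h after lipopolysaccharide (LPS) and back at their starting level by 24 h in wildtype macrophages. A gene was a member if its wildtype mean after 3 h lay at least 2 log2 units below the untreated mean, its wildtype mean after 24 h lay within 0.5 log2 units of the untreated mean, and its probe was well above background on both untreated wildtype arrays. Genes carrying only clone, RIKEN, LOC or Gm names were left out. The limits were met by 92 of 18523 named genes on the array, of which 14165 were above background in untreated wildtype samples. Of the 356 named genes that were down by that much at 3 h, 241 were still below the 24 h band, 22 were above it and 1 had no 24 h value. Another 56 genes under clone, RIKEN, LOC or Gm names met the limits and are not described.

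Bone marrow of 2 Commd1 knockout and 2 Commd1 wildtype mice was cultured over 10 days in GM-CSF at 20 ng/ml, a cytokine that makes myeloid precursors divide and mature. The labels call the cells macrophages. Part of each mouse's culture was left untreated, and other parts received LPS at 10 ng/mL for 3 h or for 24 h. The RNA of each of the 12 samples went onto its own single-colour array. The 6 groups of 2 mice were therefore knockout untreated, knockout 3 h and knockout 24 h, and wildtype untreated, wildtype 3 h and wildtype 24 h, all of them grown in GM-CSF. The labels give neither the knockout allele, nor the cells that carry the deletion in the animal, nor strain, age or sex. The 3 samples of a mouse share that mouse's culture.

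COMMD1 works within the CCC complex, which returns membrane proteins from endosomes to the cell surface, and it also limits transcription by NF-kB. LPS is sensed by the receptor TLR4, whose signalling switches on several waves of inflammatory genes through NF-kB, MAP kinases and interferon. The same stimulus lowers many transcripts that are short-lived in resting macrophages, among them transcripts of transcription factors, signalling regulators and cell-cycle proteins. A transcript with a high turnover can follow a change in its synthesis within hours in both directions.

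Levels below are log2 processed signals minus the array's 75th percentile, so a level of 0 is the 75th percentile of that array, and changes are differences of such levels. The members were selected on the wildtype changes, so these are given as a description with no test, and so are differences between knockout and wildtype samples, since a rule on wildtype changes favours genes whose wildtype fall came out large. The fold and background limits of the rule used wildtype arrays only. Knockout arrays did enter the choice of probe, since the brightest by its mean over the arrays of both genotypes stood for a gene. Knockout changes were tested with limma over all genes at an adjusted p under 0.05. The 3 knockout comparisons share arrays. "Fell" and "rose" are used for knockout changes past that threshold.

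In total, 59.2% to 69.3% of probes were well above background on knockout arrays and 65.1% to 72.9% on wildtype arrays, and no spot was saturated. Commd1 levels ran from -0.50 to 0.07 on the 6 knockout arrays and from 2.70 to 2.89 on the 6 wildtype arrays, so the labels and the targeted gene did not conflict. All 10 LPS control genes, Il6 and Tnf among them, rose in knockout cells at 3 h with a median change of 8.15. Each slide held 1 time, so that time and slide cannot be told apart, and genotype and array position within a slide cannot be told apart either. The response of the signal to the amount of spike-in RNA, on log scales, had slopes of 0.794 to 0.799 on knockout arrays and 0.735 to 0.743 on wildtype arrays of the untreated and 3 h slides, and 0.842 to 0.869 and 0.820 to 0.824 at 24 h. It was outside the maker's range on every array.

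The cells carried the markers of their label: all 12 macrophage markers were above background on both arrays of every group. Their summed level was 8.56 to 8.58 in untreated knockout samples, 8.95 to 9.16 at 3 h and 8.73 to 8.79 at 24 h, against 8.35 to 8.42, 8.79 to 8.81 and 8.93 to 8.96 in wildtype samples. Of 10 dendritic cell markers, 6 were above background on both untreated knockout arrays and 7 on both untreated wildtype arrays, Xcr1 was above background on no array, and the summed level was 6.35 to 6.40, 6.86 to 7.06 and 8.26 to 8.33 in knockout and 6.26 to 6.27, 6.60 to 6.62 and 8.09 to 8.12 in wildtype samples. The neutrophil sum, from 10 markers on the array, was lowest at 3 h in both genotypes. It was at 4.39 to 4.42, 3.75 to 3.87 and 4.46 to 4.63 in knockout and 4.49 to 4.61, 4.26 to 4.30 and 4.67 to 4.79 in wildtype samples. Of the 9 neutrophil markers tested in knockout cells, 1 was lower and 3 were higher at 3 h, with a median change of 0.88. At 24 h against 3 h, 1 was higher and none lower, with a median change of -0.48. The part of neutrophil RNA in the members' course was not tested. The sums of the 7 erythroid markers were -0.97 to -0.68, -2.67 to -2.54 and -2.99 to -2.72 in knockout and -1.27 to -0.91, -2.72 to -2.59 and -2.58 to -2.44 in wildtype samples, with Alas2 above background nowhere. B cell markers summed to 0.70 to 0.76, -0.29 to -0.18 and -0.52 to -0.35 in knockout and -0.37 to -0.24, -1.04 to -0.63 and -0.88 to -0.87 in wildtype samples. Cd3g, Cd8a, Cpa3, Fcer1a, Epx, Ms4a2, Ebf1 and Lum, markers of T, mast, B and stromal cells, were above background on no array. Other markers of these lists were above background on both arrays of a group. By group they numbered 3 to 6 of 8 B cell markers and 3 to 5 of 9 T and NK markers. For mast cells, basophils and eosinophils they numbered 1 to 4 of 9, and for stroma 6 to 7 of 9. T and NK markers summed to 2.06 to 2.62, mast cell, basophil and eosinophil markers to -4.41 to -0.83 and stromal markers to 1.02 to 2.04 over the 12 arrays. In such bulk samples fewer cells of a type and less RNA per cell cannot be told apart.

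The fall and the return were both found in knockout cells. At 3 h, 90 of the 92 members fell in knockout cells, where 25.7% of all 23002 genes tested were lower, and no member rose, where 26.4% of all genes were higher (none of the 92 had an unadjusted p under 0.05 in the higher direction). The median change of the members in knockout cells was -2.78, with -2.95 in the mouse of replicate 1 and -2.58 in the mouse of replicate 2, and single members ran from -5.70 to -0.11. In wildtype cells the median was -2.49, with -2.50 and -2.48 in the mice, and the medians over all genes tested were 0.06 in knockout and 0.03 in wildtype cells. At 24 h against 3 h, all 92 members rose in knockout cells, where 26.3% of all 23003 genes tested were higher, and the median rise was 2.60. Leaving out the knockout mouse of replicate 2 ended the call of that rise for Slc46a2 (limma, adjusted p 0.158). At 3 h the calls of 2 dim members, Prokr1 and Slc46a2, were lost with the normexp background correction.

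At 24 h against untreated the knockout members spread out around their starting level. Of the 92 members, 26 were lower, where 31.5% of 23001 genes were, and 14 were higher, where 26% were, while 52 passed in neither direction. The median was -0.27 in knockout cells, from -1.62 to 1.45, with -0.28 and -0.16 in the mice, and -0.18 in wildtype cells, whose members lay between -0.49 and 0.44 by the rule. Without the knockout mouse of replicate 1, 12 of the 26 lower and 12 of the 14 higher genes kept their call, and without the mouse of replicate 2, 22 and 11. The genes lower at 24 h whichever mouse was left out were Mbd4, Aatk, Il6ra, P2rx7, Rab42-ps, Shpk, Slc46a2, Slc45a4, Foxred2, Harbi1, Fam78a and Fam161a. Those higher at 24 h whichever mouse was left out were Npas4, Map3k1, Arhgap25, Fblim1, Fgd4, Fnip2, Snx24, Plekhm1, Pdp1 and Spsb4. Of these 22, Slc46a2 lost its call with normexp and with the authors' value table, Mbd4 with quantile normalization and with knockout arrays only (limma, adjusted p 0.0753 and 0.0744), Fblim1 with quantile normalization (adjusted p 0.0709), and Mbd4, Fblim1 and Plekhm1 with levels divided by the spike-in slope (adjusted p 0.0618, 0.156 and 0.178).

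**Figure D1:**
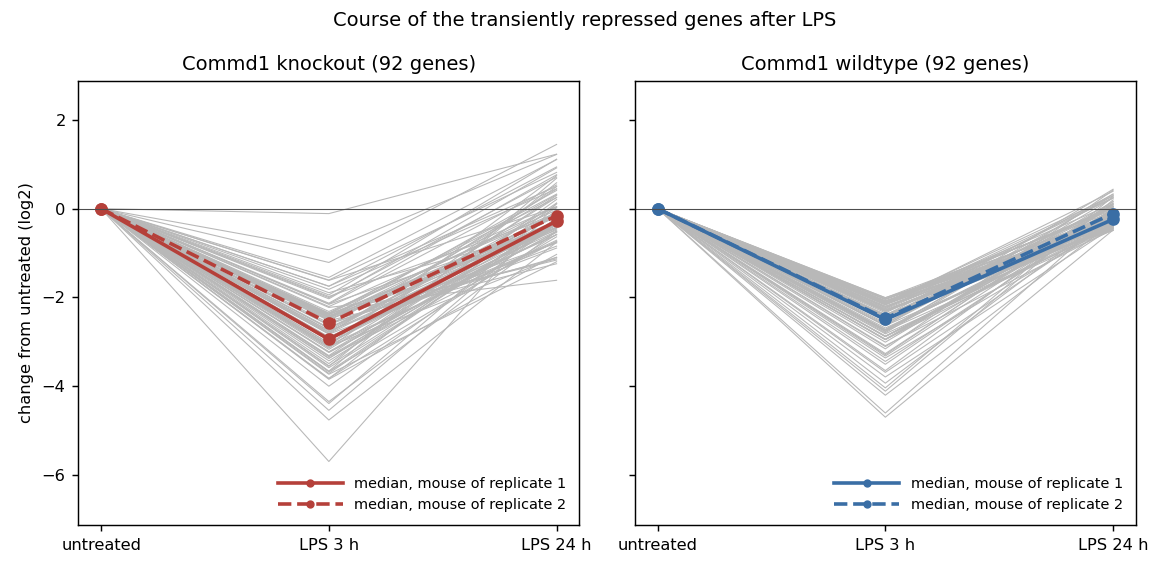
Change from untreated (log2) at 3 h and 24 h of LPS, in knockout cells on the left and wildtype cells on the right. Grey lines are the 92 genes (mean of 2 mice) and coloured lines the median of each mouse; the knockout medians at 3 h are -2.95 and -2.58, the wildtype medians -2.50 and -2.48, and knockout genes at 24 h run from -1.62 to 1.45.

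The knockout cells met the same fold limits for 49 of the 92 members, which 0.787% of all 23004 genes met in knockout cells. The 3 h limit of -2 was met by 80 members in knockout cells, and at 24 h 53 members lay within 0.5 of untreated, 24 below and 15 above. The genes that stayed down in wildtype cells differed from the members mainly at 24 h: of those 241, 234 fell at 3 h in knockout cells and 219 were still lower at 24 h, with a median change of -1.72, and 160 rose between 3 h and 24 h while 18 fell. Of the 22 that overshot in wildtype cells, 18 were higher at 24 h in knockout cells and none was lower by limma, also at an unadjusted p under 0.05, with a median of 0.81. No test was made between these sets.

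At the edges of the rule, Fam161a, Tnrc6c and Tcfcp2 were just inside the 3 h limit with wildtype changes of -2.01, -2.01 and -2.04, and Traf3ip3, Rhod and Helq just outside it with -1.999, -1.998 and -1.993. At the lower edge of the 24 h band lay Harbi1, P2rx7 and Cdca7 at -0.49, -0.49 and -0.48 inside, and Acot6, Rab40c and Eepd1 at -0.50, -0.51 and -0.52 outside. At the upper edge, Ptprv, Anubl1 and Mblac1 were inside at 0.44, 0.42 and 0.39, and Cdc6, Sfrs17b and Lmln outside at 0.51, 0.52 and 0.54. Some members were dim at 3 h. In knockout cells Ccne2, Klhdc1, Anubl1, Fam161a and Rab42-ps were well above background on 1 of the 2 arrays, and in wildtype cells Ankrd55 and Ptprv. Nfkbil2 was well above background on the 1 knockout array with a value, its spot on the other being an outlier. Neither 3 h array was well above background for 9 members in knockout cells and for 7 in wildtype cells, so their folds are only bounds, and 4 of the 7 wildtype bounds were under 4-fold. Bounds set the untreated mean against the lowest signal well above background on the 3 h arrays. For 23 members the array had another probe above background (25 probes in all): all of these were below 0 at 3 h in knockout cells for the 23 members, and 17 members had every one of them at -1 or lower, against 22 and 18 in wildtype cells.

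Transcriptional regulators formed the largest group with a common role, 14 members, and 13 of them fell at 3 h in knockout cells. The group's median 3 h change was -3.49 in knockout and -2.87 in wildtype cells. At 24 h, 5 were lower than untreated in knockout cells, 2 were higher and 7 passed in neither direction, where 31.5% of all genes were lower and 26% higher. Role groups were not tested as sets. Among them were Per1, Tsc22d3, Maf, Irf2bp2, Ahrr, Npas4, Nfatc1, Tcfeb (now Tfeb), Phf17 (now Jade1), Tcfcp2 (now Tfcp2), Zmym6, Samd1 and Rslcan18, a KRAB zinc finger gene.

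Per1 encodes a repressor at the core of the circadian clock. In knockout samples Per1 was at 2.63 and 2.36 untreated, -1.92 and -1.88 after 3 h and 2.57 and 2.38 after 24 h. In wildtype samples Per1 was at 2.38 and 1.89, -1.87 and -2.10 and 2.33 and 2.33 at those times. Both genotypes were low at 3 h on every array and no sample at 24 h lay outside the untreated range of the 4 mice. In knockout cells the change was -4.40 ± 0.17 at 3 h (limma, n = 2 mice, adjusted p 2.66e-07) and -0.02 ± 0.17 at 24 h (adjusted p 0.916). Its probe lay at chr11:68923364-68923423 of mm9, the build of the files; no exon annotation of that build was used here.

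Tsc22d3, also known as GILZ, encodes a leucine zipper protein that glucocorticoids induce and that restrains NF-kB and AP-1. In knockout samples Tsc22d3 was at 4.92 and 4.72 untreated, 0.17 and 0.37 after 3 h and 4.596 and 4.66 after 24 h. In wildtype samples Tsc22d3 was at 4.48 and 3.94, 0.46 and 0.64 and 4.39 and 4.28 at those times. It was 23.4-fold lower at 3 h in knockout cells (log2 change -4.55 ± 0.17, limma, adjusted p 2.45e-07) and 12.6-fold lower in wildtype cells. The untreated knockout samples both lay above the untreated wildtype samples, by 0.61, and the 3 h samples lay below, by 0.28.

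Maf encodes a transcription factor that activates Il10. Maf fell by 2.16 in knockout cells at 3 h, with a wildtype change of -2.51. At 24 h it was 0.38 below untreated in knockout cells (limma, adjusted p 0.026), and this call was lost when either mouse was left out (adjusted p 0.0588 and 0.0572).

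Irf2bp2 encodes a corepressor that binds IRF2. In knockout samples Irf2bp2 was at 3.92 and 3.89 untreated, -0.38 and -0.52 after 3 h and 3.38 and 3.41 after 24 h. In wildtype samples Irf2bp2 was at 3.76 and 3.47, -0.40 and -0.79 and 3.36 and 3.26 at those times. The knockout change was -4.35 ± 0.15 at 3 h (limma, adjusted p 1.4e-07) and -0.51 ± 0.15 at 24 h (adjusted p 0.0161), the second lost when either mouse was left out (adjusted p 0.156 and 0.121). The wildtype changes were -4.21 and -0.30, so the 2 genotypes ran close to each other at 3 h.

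Ahrr encodes the repressor of the aryl hydrocarbon receptor. In knockout samples Ahrr was at 0.53 and -0.04 untreated, -3.23 and -3.63 after 3 h and -0.43 and -0.35 after 24 h. In wildtype samples Ahrr was at -0.85 and -1.33, -3.76 and -3.98 and -0.78 and -0.74 at those times. The untreated knockout samples both lay above both wildtype samples, by 1.34, the largest positive difference among the untreated members. In knockout cells it fell by 3.68 at 3 h (limma, adjusted p 3.16e-06). At 24 h it was 0.64 below untreated (limma, adjusted p 0.0418), where the wildtype change was 0.33. That call was lost without the mouse of replicate 1, with a change of -0.31. It was also lost in limma with knockout arrays only (adjusted p 0.0753), without the filter on dim probes (0.0596), with the mean over its probes (0.0564) and with levels divided by the spike-in slope (0.0549).

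Npas4, known from neurons as a transcription factor induced by electrical activity, was 1 of the 2 members that did not fall at 3 h in knockout cells. In knockout samples Npas4 was at -4.56 and -4.01 untreated, -4.36 and -4.43 after 3 h and -3.16 and -2.95 after 24 h. In wildtype samples Npas4 was at -2.37 and -2.26, -4.75 and -4.76 and -2.51 and -2.26 at those times. The untreated knockout samples lay below both untreated wildtype samples, by 1.97, and overlapped the range of the 3 h samples. The knockout change at 3 h was -0.11 ± 0.17 (limma, adjusted p 0.62), against -2.44 in wildtype cells, and at 24 h the knockout level stood 1.23 ± 0.17 above untreated (adjusted p 0.000428).

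Among the rest of the group, Tcfeb, the master regulator of lysosomal genes, fell by 3.32 at 3 h in knockout cells and was 0.13 from untreated at 24 h (limma, adjusted p 0.271), with wildtype changes of -3.11 and -0.08. Nfatc1, a calcium-controlled factor, fell by 2.47 and Phf17, a subunit of a histone acetyltransferase complex, by 3.83 in knockout cells. Phf17 and Zmym6 were 0.58 and 0.59 below untreated at 24 h in knockout cells, calls lost without the mouse of replicate 1 (adjusted p 0.0614 and 0.0807).

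**Figure D2:**
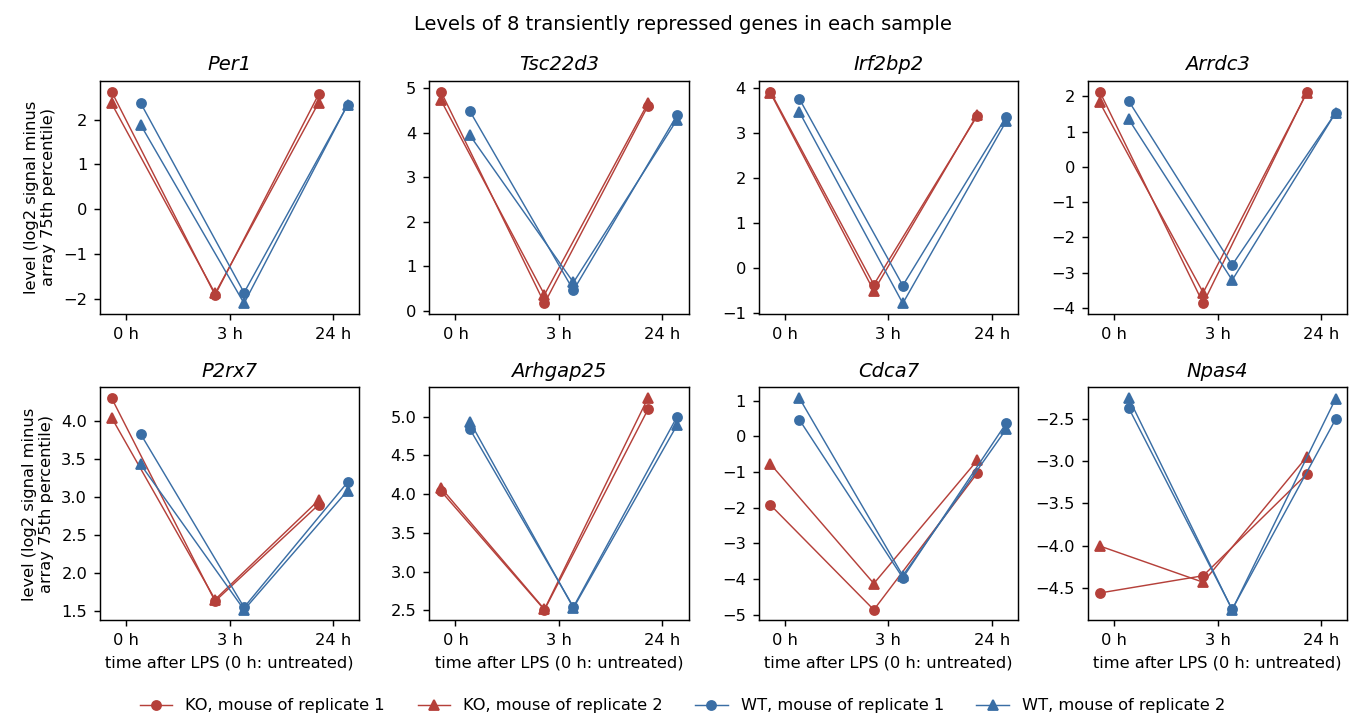
Levels (log2 signal minus the array's 75th percentile) of 8 members in every sample, untreated (0 h) and after 3 h and 24 h of LPS, with knockout samples in red left of wildtype samples in blue; circles and triangles are the mice of replicates 1 and 2, joined by lines. Per1, Tsc22d3, Irf2bp2 and Arrdc3 drop and return in all mice, P2rx7 stays below its untreated level at 24 h in knockout samples, and Cdca7 and Npas4 start lower in knockout samples.

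Promoter sequence was taken from RefSeq (GRCm38.p6) for the 72 members with an entry, as the 250 bases before the annotated start, and short motifs were sought on both strands. The core of the cyclic AMP response element, TGACG, was in 30 of the 72 (41.7%), against 27.0% of 11383 tested named genes with an entry and 19.8% of all 27025 genes in the table. The full palindrome TGACGTCA, which contains that core on each strand, was in 3 (4.17%, against 2.67% of tested genes): Dtl, Zfp367 and Arl4d. The E-box CACGTG was in 10 (13.9%, against 9.10%), Per1 and Il6ra among them, and GGGCGG, the SP1 box, in 53 (73.6%, against 56.9%). CCAAT was in 34 (47.2%, against 39.9%), TATAAA in 4 (5.56%, against 10.3%), CCGGAAG (ETS) in 5 (6.94%, against 13.1%), TTCCCGCC (E2F) in 3 (4.17%, against 3.57%), TGANTCA (AP-1) in 5 (6.94%, against 6.50%) and the NF-kB motif in 2 (2.78%, against 1.82%). TGTTTAC (forkhead) and the glucocorticoid response palindrome were in none of the 72, against 2.86% and 0.00879% of tested genes. The members' windows had a median GC content of 61.5%, against 58.4% in tested genes, and a motif with CG in it is more frequent at high GC content. A match is no evidence of binding. The windows of 3 members are printed in lower case with TGACG or its reverse complement and CACGTG in capitals: Per1, which has 2 annotated starts, because it holds both motifs, Dtl because it holds the palindrome, and Cdca7, the member with the largest wildtype fall, because it holds neither.
Per1, first start (chr11:69098699-69098948, plus strand): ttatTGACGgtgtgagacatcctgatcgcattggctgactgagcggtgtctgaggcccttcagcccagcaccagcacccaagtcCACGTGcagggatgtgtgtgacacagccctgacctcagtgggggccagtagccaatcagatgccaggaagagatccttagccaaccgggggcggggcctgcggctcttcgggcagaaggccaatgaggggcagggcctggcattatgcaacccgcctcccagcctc
Per1, second start (chr11:69099902-69100151, plus strand): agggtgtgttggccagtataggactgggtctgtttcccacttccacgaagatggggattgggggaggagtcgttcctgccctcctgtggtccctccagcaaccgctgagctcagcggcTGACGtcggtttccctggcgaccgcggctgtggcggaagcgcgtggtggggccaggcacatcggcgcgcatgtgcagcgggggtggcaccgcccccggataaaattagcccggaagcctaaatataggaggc
Dtl (chr1:191575545-191575794, minus strand): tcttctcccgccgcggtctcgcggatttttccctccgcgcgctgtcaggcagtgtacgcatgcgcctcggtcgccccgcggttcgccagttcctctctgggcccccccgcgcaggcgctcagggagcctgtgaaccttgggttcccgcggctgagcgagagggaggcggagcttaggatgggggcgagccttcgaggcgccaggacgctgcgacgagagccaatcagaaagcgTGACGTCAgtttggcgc
Cdca7 (chr2:72475969-72476218, plus strand): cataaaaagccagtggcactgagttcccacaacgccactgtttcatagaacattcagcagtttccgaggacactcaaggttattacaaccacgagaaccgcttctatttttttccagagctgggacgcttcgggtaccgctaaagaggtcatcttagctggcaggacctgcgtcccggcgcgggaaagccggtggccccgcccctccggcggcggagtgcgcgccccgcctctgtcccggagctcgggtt

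Cell-cycle and DNA genes made up 10 members, of which 9 fell at 3 h in knockout cells, with a median change of -2.48 in knockout and -2.27 in wildtype cells. At 24 h, 3 were lower than untreated in knockout cells, where 31.5% of all genes were. None was higher by limma, also at an unadjusted p under 0.05, where 26% of all genes were higher at the adjusted threshold. With the mouse as a block, Ccne2 and Dtl passed as higher at 24 h and Nfkbil2 as lower (limma, adjusted p 0.00879, 0.0323 and 0.0137). The mean untreated level was lower in knockout than in wildtype samples for 8 of the 10 and higher for Polk and Mbd4, and 7 of the 8 lay below without overlap, where 25.8% of all 23004 genes did. The median difference over the 10 was -0.59, from -2.46 to 0.45, where the median over all 92 members was 0.02. It was -0.54 at 3 h and -0.33 at 24 h.

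Cdca7, a partner of the chromatin remodeller HELLS that MYC and E2F induce, had levels of -1.92 and -0.78 in untreated knockout samples, -4.86 and -4.13 after 3 h and -1.03 and -0.67 after 24 h. In wildtype samples Cdca7 was at 0.47 and 1.07 untreated, -3.97 and -3.91 after 3 h and 0.37 and 0.20 after 24 h. Untreated knockout samples lay below untreated wildtype samples by 2.12, and so did the 3 h samples by 0.56 and the 24 h samples by 1.14, with no overlap at any time. The knockout change at 3 h was -3.15 ± 0.39 (limma, adjusted p 0.000177), against -4.70 in wildtype cells, and at 24 h it was 0.50 ± 0.39 (adjusted p 0.303).

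Ccne2, which encodes cyclin E2, an activator of CDK2 at the entry into S phase, was the other member that did not fall at 3 h in knockout cells. In knockout samples Ccne2 was at -6.49 and -4.74 untreated, -7.08 and -6.00 after 3 h and -4.81 and -3.98 after 24 h. In wildtype samples Ccne2 was at -3.58 and -2.73, -5.35 and -5.21 and -3.29 and -3.29 at those times. Every knockout sample was below every wildtype sample of its time. The knockout change at 3 h was -0.93 ± 0.59 (limma, adjusted p 0.221), and with the mouse as a block it passed (adjusted p 0.0281). At 24 h it was 1.22 ± 0.59 above untreated (adjusted p 0.109), or adjusted p 0.00879 with the mouse as a block and 0.0195 without the mouse of replicate 2.

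Dtl, the substrate receptor through which the CRL4 ubiquitin ligase destroys CDT1, had levels of -1.29 and -0.32 in untreated knockout samples, -4.16 and -3.07 after 3 h and -0.65 and -0.06 after 24 h. In wildtype samples Dtl was at 0.23 and 0.50 untreated, -2.91 and -2.89 after 3 h and 0.47 and 0.46 after 24 h. It fell by 2.81 in knockout cells at 3 h (limma, adjusted p 0.000408), against a wildtype change of -3.27. Its 24 h level was 0.44 from untreated in knockout cells (adjusted p 0.368, or 0.0323 with the mouse as a block). Gmnn, which encodes geminin, the inhibitor of CDT1, fell by 2.46 in knockout cells with a wildtype change of -2.23. The mismatch repair gene Msh6, the thymine glycosylase gene Mbd4 and the translesion polymerase gene Polk fell by 2.50, 2.62 and 3.03 in knockout cells, with wildtype changes of -2.16, -2.21 and -2.31. At 24 h Mbd4 was 0.77 below untreated in knockout cells (limma, adjusted p 0.0284) and Msh6 0.48 below (adjusted p 0.0145, lost without the mouse of replicate 1 with 0.0524). Obfc2a (now Nabp1), a single-stranded DNA binding protein, was 0.44 below untreated at 24 h (adjusted p 0.013, or 0.0731 without that mouse). Nfkbil2 (now Tonsl), which guards replication forks, fell by 1.90 in knockout cells, from 1 of the 2 arrays at 3 h because its spot on the other was an outlier.

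Kinases and phosphatases counted 9 members, and all 9 fell at 3 h in knockout cells, with a median of -2.50 in knockout and -2.52 in wildtype cells. Dusp6, the cytoplasmic phosphatase that switches off ERK, had levels of 2.34 and 3.09 in untreated knockout samples, 0.22 and 0.57 after 3 h and 2.37 and 2.88 after 24 h. In wildtype samples Dusp6 was at 3.64 and 3.83 untreated, 0.85 and 0.72 after 3 h and 3.40 and 3.32 after 24 h. It fell by 2.32 ± 0.26 at 3 h in knockout cells (limma, adjusted p 9.33e-05), with a wildtype change of -2.95, and the untreated knockout samples lay below the untreated wildtype samples by 1.02. Sik1, a kinase of the AMPK family that keeps CREB coactivators out of the nucleus, fell by 3.59 in knockout cells, with a wildtype change of -2.95. The MAP kinase kinase kinase genes Map3k1 and Map3k4 fell by 1.75 and 2.50 in knockout cells. At 24 h Map3k1 was 0.50 ± 0.11 above untreated (limma, adjusted p 0.00442) and Aatk, a membrane-bound kinase, 0.85 ± 0.15 below (adjusted p 0.00154), the other 7 in this group passing in neither direction. With the mouse as a block Map3k9 passed as higher (limma, adjusted p 0.0387).

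Dusp18, a dual-specificity phosphatase, had levels of -4.32 and -4.04 in untreated knockout samples, -7.96 and -7.15 after 3 h and -4.73 and -4.47 after 24 h. In wildtype samples Dusp18 was at -4.26 and -4.10 untreated, -6.41 and -6.54 after 3 h and -4.46 and -4.54 after 24 h. Neither knockout array at 3 h was well above background, so it was at least 4.84-fold lower in knockout cells (limma, adjusted p 6.29e-06), against 4.91-fold lower in wildtype cells. Ptprv, a receptor-type tyrosine phosphatase, had levels of -3.61 and -3.79 in untreated knockout samples, -6.02 and -6.15 after 3 h and -3.95 and -4.14 after 24 h. In wildtype samples Ptprv was at -4.07 and -4.17 untreated, -6.97 and -6.55 after 3 h and -3.80 and -3.56 after 24 h. It fell by 2.38 in knockout cells at 3 h (limma, adjusted p 4.4e-06). At 24 h both knockout mice stood below untreated and both wildtype mice above it, with means of -0.34 (adjusted p 0.0934) and 0.44. With the mean over its probes the knockout change at 24 h passed (-0.83, limma, adjusted p 0.0199) and the rise from the 3 h level was lost (0.58, adjusted p 0.0766).

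Receptors and signals counted 8 members, and all of them fell at 3 h in knockout cells, the dim Prokr1 not under every background correction. The group held the receptor genes P2rx7, Il6ra, Prokr1 and Mrgpre, the regulators Arrdc3, Arrdc2 and Rgs2, and the secreted factor gene Gdf15. Arrdc3 encodes an alpha-arrestin that steers receptors at endosomes towards ubiquitination. In knockout samples Arrdc3 was at 2.14 and 1.83 untreated, -3.87 and -3.57 after 3 h and 2.12 and 2.09 after 24 h. In wildtype samples Arrdc3 was at 1.87 and 1.35, -2.78 and -3.21 and 1.54 and 1.54 at those times. It was 52.1-fold lower at 3 h in knockout cells (limma, log2 change -5.70 ± 0.21, adjusted p 2.13e-07) and 24.4-fold lower in wildtype cells. At 24 h it was back, with a knockout change of 0.12 ± 0.21 (adjusted p 0.646).

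P2rx7, the channel through which extracellular ATP triggers the NLRP3 inflammasome, had levels of 4.30 and 4.04 in untreated knockout samples, 1.63 and 1.65 after 3 h and 2.90 and 2.96 after 24 h. In wildtype samples P2rx7 was at 3.83 and 3.43 untreated, 1.55 and 1.52 after 3 h and 3.19 and 3.08 after 24 h. Untreated knockout samples both lay above untreated wildtype samples, by 0.54, and 24 h knockout samples both lay below 24 h wildtype samples, by 0.21. In knockout cells it fell by 2.53 at 3 h and was 1.24 ± 0.14 below untreated at 24 h (limma, adjusted p 0.000108), where the wildtype change was -0.49, at the edge of the rule's band. Il6ra, the ligand-binding chain of the IL-6 receptor, had levels of 3.47 and 3.34 in untreated knockout samples, 1.22 and 0.77 after 3 h and 2.45 and 2.04 after 24 h. In wildtype samples Il6ra was at 2.65 and 2.33 untreated, 0.13 and 0.28 after 3 h and 1.99 and 2.08 after 24 h. It was 1.16 ± 0.19 below untreated at 24 h in knockout cells (limma, adjusted p 0.000923), with a wildtype change of -0.45, and untreated knockout samples lay 0.91 above untreated wildtype samples.

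Prokr1, a prokineticin receptor, had levels of -7.00 and -6.50 in untreated knockout samples, -8.48 and -8.90 after 3 h and -5.54 and -5.73 after 24 h. In wildtype samples Prokr1 was at -5.17 and -5.01 untreated, -7.31 and -8.08 after 3 h and -4.87 and -4.73 after 24 h. It was not well above background on 1 untreated and both 3 h knockout arrays, so no fold is given at 3 h in knockout cells. The fall passed in the processed signals (limma, adjusted p 0.000355) and was lost with normexp, where the change was -0.20 (adjusted p 0.124), and with the authors' deposited table, where it was -0.28 (adjusted p 0.177). In wildtype cells it was at least 3.85-fold lower. At 24 h it was 1.12 ± 0.27 above untreated in knockout cells (limma, adjusted p 0.00731), a call lost without the mouse of replicate 1 (adjusted p 0.146). Gdf15, a stress-induced member of the TGF-beta superfamily, was 0.71 above untreated at 24 h in knockout cells (limma, adjusted p 0.0247), and this was lost when either mouse was left out (adjusted p 0.08 and 0.0546). Rgs2, which speeds the GTPase of G protein alpha subunits, fell by 2.39 in knockout cells at 3 h, with a wildtype change of -2.17.

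Small GTPase and cytoskeleton genes counted 8 members, all lower at 3 h in knockout cells. At 24 h 3 were above and 1 below untreated, where 26% and 31.5% of all genes were. Rab3a, a GTPase of secretory vesicles, had levels of 0.14 and -0.15 in untreated knockout samples, -4.25 and -3.77 after 3 h and -0.35 and -0.36 after 24 h. In wildtype samples Rab3a was at -0.27 and -0.29 untreated, -3.00 and -3.03 after 3 h and -0.44 and -0.43 after 24 h. It was 16.1-fold lower at 3 h in knockout cells (limma, log2 change -4.01 ± 0.15, adjusted p 2.61e-07) and 6.67-fold lower in wildtype cells, the largest such gap towards the knockout among the 92. At 24 h the knockout change was -0.35 (adjusted p 0.0833, or 0.00874 without the mouse of replicate 2).

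Arhgap25, a GTPase-activating protein for Rac in phagocytes, had levels of 4.04 and 4.08 in untreated knockout samples, 2.51 and 2.51 after 3 h and 5.09 and 5.24 after 24 h. In wildtype samples Arhgap25 was at 4.84 and 4.94 untreated, 2.54 and 2.53 after 3 h and 4.996 and 4.89 after 24 h. Untreated knockout samples lay 0.83 below untreated wildtype samples, the 3 h samples differed by 0.03, and the 24 h knockout samples lay 0.23 above. In knockout cells it fell by 1.55 at 3 h and stood 1.11 ± 0.09 above untreated at 24 h (limma, adjusted p 1.37e-05), with wildtype changes of -2.35 and 0.06. Rab42-ps (now Rab42) had levels of -2.35 and -2.10 in untreated knockout samples, -6.33 and -5.82 after 3 h and -3.40 and -3.12 after 24 h. In wildtype samples Rab42-ps was at -2.66 and -2.73 untreated, -5.72 and -5.45 after 3 h and -3.04 and -3.07 after 24 h. It was 1.03 ± 0.19 below untreated at 24 h in knockout cells (limma, adjusted p 0.00158), with a wildtype change of -0.36. Fgd4, an exchange factor for CDC42, fell by 3.07 in knockout cells and was 0.74 above untreated at 24 h (limma, adjusted p 0.00187), and Fblim1, a linker of filamin to adhesions, was 0.53 above (adjusted p 0.00688).

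Endosome, lysosome and vesicle genes were 6 members, and all 6 fell at 3 h in knockout cells. None was below untreated at 24 h by limma in knockout cells, also at an unadjusted p under 0.05, and 3 were above: Fnip2, Snx24 and Plekhm1. Of all genes, 31.5% were lower and 26% higher at the adjusted threshold. Fnip2, a partner of folliculin in nutrient sensing at the lysosome, had levels of 3.89 and 3.88 in untreated knockout samples, 2.44 and 2.11 after 3 h and 4.77 and 4.63 after 24 h. In wildtype samples Fnip2 was at 4.20 and 3.98 untreated, 1.75 and 1.61 after 3 h and 4.42 and 4.41 after 24 h. It fell by 1.61 at 3 h in knockout cells, with a wildtype change of -2.41, and was 0.82 ± 0.13 above untreated at 24 h (limma, adjusted p 0.000746). The 24 h knockout samples were the highest of the 12.

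Snx24 and Snx30 encode sorting nexins, proteins that bind phosphoinositides on endosomes. Snx24 had levels of 0.42 and 0.79 in untreated knockout samples, -1.08 and -1.21 after 3 h and 1.498 and 1.59 after 24 h. In wildtype samples Snx24 was at 1.06 and 1.37 untreated, -1.31 and -1.13 after 3 h and 1.21 and 1.38 after 24 h. It was 0.94 ± 0.16 above untreated at 24 h in knockout cells (limma, adjusted p 0.001), and both knockout samples were then above all untreated samples of either genotype. Snx30 had levels of 1.59 and 1.56 in untreated knockout samples, -2.16 and -1.78 after 3 h and 1.29 and 1.28 after 24 h. In wildtype samples Snx30 was at 1.76 and 1.67 untreated, -1.79 and -1.51 after 3 h and 1.36 and 1.38 after 24 h. It fell by 3.54 at 3 h in knockout cells (limma, adjusted p 2.7e-07), with a wildtype change of -3.37. Plekhm1, an effector of RAB7 in the fusion of autophagosomes and endosomes with lysosomes, fell by 1.82 and stood 0.45 above untreated at 24 h (limma, adjusted p 0.00792).

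Metabolism and transport genes counted 13 members, all lower at 3 h in knockout cells, with medians of -2.70 in knockout and -2.32 in wildtype cells. At 24 h, 5 were below and 2 above untreated in knockout cells, where 31.5% and 26% of all genes were. Pdp1, the phosphatase that activates pyruvate dehydrogenase, had levels of 1.83 and 1.98 in untreated knockout samples, -0.03 and -0.22 after 3 h and 2.74 and 2.91 after 24 h. In wildtype samples Pdp1 was at 2.52 and 2.56 untreated, -0.17 and -0.21 after 3 h and 2.74 and 2.66 after 24 h. It fell by 2.03 in knockout cells at 3 h and was 0.92 ± 0.10 above untreated at 24 h (limma, adjusted p 0.000104), and its untreated knockout samples lay 0.63 below the untreated wildtype samples. Foxred2, a flavoprotein of protein disposal in the endoplasmic reticulum, had levels of 1.22 and 1.20 in untreated knockout samples, -1.59 and -1.15 after 3 h and -0.02 and 0.24 after 24 h. In wildtype samples Foxred2 was at 0.98 and 0.82 untreated, -1.21 and -1.17 after 3 h and 0.61 and 0.62 after 24 h. It was 1.10 ± 0.15 below untreated at 24 h in knockout cells (limma, adjusted p 0.000325), with a wildtype change of -0.29.

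Enzymes of endocannabinoid synthesis were represented by Napepld and Dagla, which fell by 3.08 and 2.13 at 3 h in knockout cells, with wildtype changes of -2.94 and -2.11. Dagla was 0.76 above untreated at 24 h in knockout cells (limma, adjusted p 0.00816), from 1 of the 2 arrays because its spot on the other was an outlier. Fut7, the fucosyltransferase that completes selectin ligands, fell by 2.69 in knockout cells. Slc45a4, a solute carrier, and Shpk, which encodes a sedoheptulose kinase, were 1.10 and 0.74 below untreated at 24 h in knockout cells (limma, adjusted p 0.000567 and 0.00568). Slc46a2, another solute carrier, had levels of -6.45 and -6.42 in untreated knockout samples, -8.48 and -8.84 after 3 h and -8.02 and -8.08 after 24 h. In wildtype samples Slc46a2 was at -6.47 and -6.94 untreated, -9.18 and -9.09 after 3 h and -6.96 and -7.05 after 24 h. It was dim throughout, not well above background on any array of LPS-treated samples, so its return is only that of a bound, and the 3 h fall was at least 1.01-fold in knockout and at least 1.26-fold in wildtype cells. The calls depended on the background correction. At 3 h the knockout change was -2.23 (limma, adjusted p 8.4e-06), but -0.19 with normexp (adjusted p 0.134). The 24 h change was -1.62 (adjusted p 6.4e-05), but 0.23 with normexp (adjusted p 0.0639) and -0.25 with the authors' deposited table (adjusted p 0.144).

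Genes of RNA decay, the ubiquitin system and cell death counted 9 members, all lower at 3 h in knockout cells. At 24 h 4 were below and 1 above untreated, where 31.5% and 26% of all genes were. Zfp36l2, which directs AU-rich mRNAs to decay, fell by 2.89 ± 0.18 at 3 h in knockout cells (limma, adjusted p 2.8e-06), with a wildtype change of -2.39. It was 0.75 below untreated at 24 h (adjusted p 0.00633, or 0.163 without the mouse of replicate 1). Tnrc6c, a scaffold of miRNA-guided silencing, fell by 2.21 in knockout cells. The apoptosis genes Casp9 and Pmaip1, which encode the initiator caspase of the mitochondrial pathway and the BH3-only protein NOXA, fell by 2.42 and 2.35 in knockout cells, with wildtype changes of -2.08 and -2.10. Trim65 and Rwdd3, of the ubiquitin and SUMO systems, were 0.75 and 0.51 below untreated at 24 h, and both calls were lost without the mouse of replicate 1 (limma, adjusted p 0.0678 and 0.115). The call of Fam188b (now Mindy4), a deubiquitinase, at 24 h was lost when either mouse was left out (adjusted p 0.104 and 0.156). With normexp the change of Fam188b was 0.07 (adjusted p 0.474), and the call of Rwdd3 was lost with the mean over its probes (-0.12, adjusted p 0.471).

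Spsb4, a SOCS-box protein that hands inducible nitric oxide synthase to a ubiquitin ligase, had levels of -3.13 and -2.60 in untreated knockout samples, -4.43 and -3.73 after 3 h and -1.46 and -1.38 after 24 h. In wildtype samples Spsb4 was at -0.53 and -0.44 untreated, -2.80 and -2.48 after 3 h and -0.31 and -0.59 after 24 h. Every knockout sample lay below every wildtype sample of its time, by 2.38 untreated, 1.44 at 3 h and 0.97 at 24 h. The knockout fall at 3 h was 2.32-fold (limma, log2 change -1.21 ± 0.25, adjusted p 0.00369), against 4.45-fold in wildtype cells. At 24 h Spsb4 stood 1.45 ± 0.25 above untreated in knockout cells (adjusted p 0.00135), the largest such rise among the members.

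The remaining 15 members have other or little-known roles, and all 15 fell at 3 h in knockout cells, with medians of -3.25 in knockout and -2.88 in wildtype cells. Fam78a had levels of 1.64 and 1.48 in untreated knockout samples, -3.53 and -2.89 after 3 h and 0.70 and 0.90 after 24 h. In wildtype samples Fam78a was at 1.37 and 1.31 untreated, -2.43 and -2.49 after 3 h and 0.93 and 0.91 after 24 h. It was 27.2-fold lower at 3 h in knockout cells (limma, log2 change -4.77 ± 0.18, adjusted p 2.61e-07) and 13.9-fold lower in wildtype cells, and 0.76 below untreated at 24 h in knockout cells (adjusted p 0.00762). Pgbd5, a gene derived from a piggyBac transposase, had levels of -1.27 and -1.33 in untreated knockout samples, -5.09 and -4.94 after 3 h and -1.65 and -1.38 after 24 h. In wildtype samples Pgbd5 was at -0.53 and -0.79 untreated, -4.27 and -4.44 after 3 h and -0.89 and -0.91 after 24 h. It fell by 3.72 in knockout cells (limma, adjusted p 1.65e-07), with a wildtype change of -3.69, and the knockout minus wildtype difference was -0.64 untreated, -0.66 at 3 h and -0.61 at 24 h.

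Klhdc1, a substrate receptor of a cullin ubiquitin ligase, had levels of -4.06 and -3.95 in untreated knockout samples, -7.91 and -6.57 after 3 h and -4.12 and -4.96 after 24 h. In wildtype samples Klhdc1 was at -3.90 and -3.81 untreated, -6.06 and -6.05 after 3 h and -4.31 and -4.24 after 24 h. It was 9.42-fold lower at 3 h in knockout cells (limma, adjusted p 0.000173) and 4.59-fold lower in wildtype cells, with 1 of the 2 knockout arrays not well above background. Its 24 h change in knockout cells was -0.53 (adjusted p 0.281, or 0.00138 without the mouse of replicate 1). Fam161a, a protein of cilia and centrosomes, had levels of -3.82 and -3.74 in untreated knockout samples, -6.43 and -5.99 after 3 h and -4.76 and -5.07 after 24 h. In wildtype samples Fam161a was at -3.97 and -3.99 untreated, -6.20 and -5.78 after 3 h and -4.41 and -4.29 after 24 h. At 24 h it was 1.13 ± 0.19 below untreated in knockout cells (limma, adjusted p 0.000941), with a wildtype change of -0.37.

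Among the dim members with only bounds at 3 h, Dchs1, an atypical cadherin of planar cell polarity, had levels of -4.29 and -4.15 in untreated knockout samples, -7.24 and -7.69 after 3 h and -5.06 and -4.42 after 24 h. In wildtype samples Dchs1 was at -4.55 and -4.91 untreated, -7.87 and -8.61 after 3 h and -4.87 and -4.64 after 24 h. It was at least 4.71-fold lower in knockout (limma, adjusted p 2.91e-05) and at least 4.96-fold lower in wildtype cells. Endou, an endoribonuclease, had levels of -4.31 and -4.65 in untreated knockout samples, -7.20 and -7.60 after 3 h and -5.12 and -5.002 after 24 h. In wildtype samples Endou was at -5.16 and -5.72 untreated, -8.90 and -8.88 after 3 h and -5.41 and -5.63 after 24 h. It was at least 3.93-fold lower in knockout (limma, adjusted p 7.12e-06) and at least 3.03-fold lower in wildtype cells. Its 24 h change of -0.59 in knockout cells (adjusted p 0.0416) was lost when either mouse was left out (adjusted p 0.349 and 0.0626), and with the normexp background correction it was 0.11. Ccdc151, which docks dynein arms in cilia, had levels of -4.96 and -4.89 in untreated knockout samples, -8.46 and -8.86 after 3 h and -6.83 and -5.42 after 24 h. In wildtype samples Ccdc151 was at -4.75 and -5.15 untreated, -9.20 and -8.58 after 3 h and -4.97 and -5.11 after 24 h. It was at least 2.88-fold lower in knockout (limma, adjusted p 9.02e-05) and at least 4.25-fold lower in wildtype cells, and the 2 knockout mice were apart at 24 h. Its 24 h change of -1.20 (adjusted p 0.0348) was lost with the mouse as a block (adjusted p 0.0522), with normexp (-0.05, adjusted p 0.75) and without the mouse of replicate 1 (adjusted p 0.261).

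**Figure D3:**
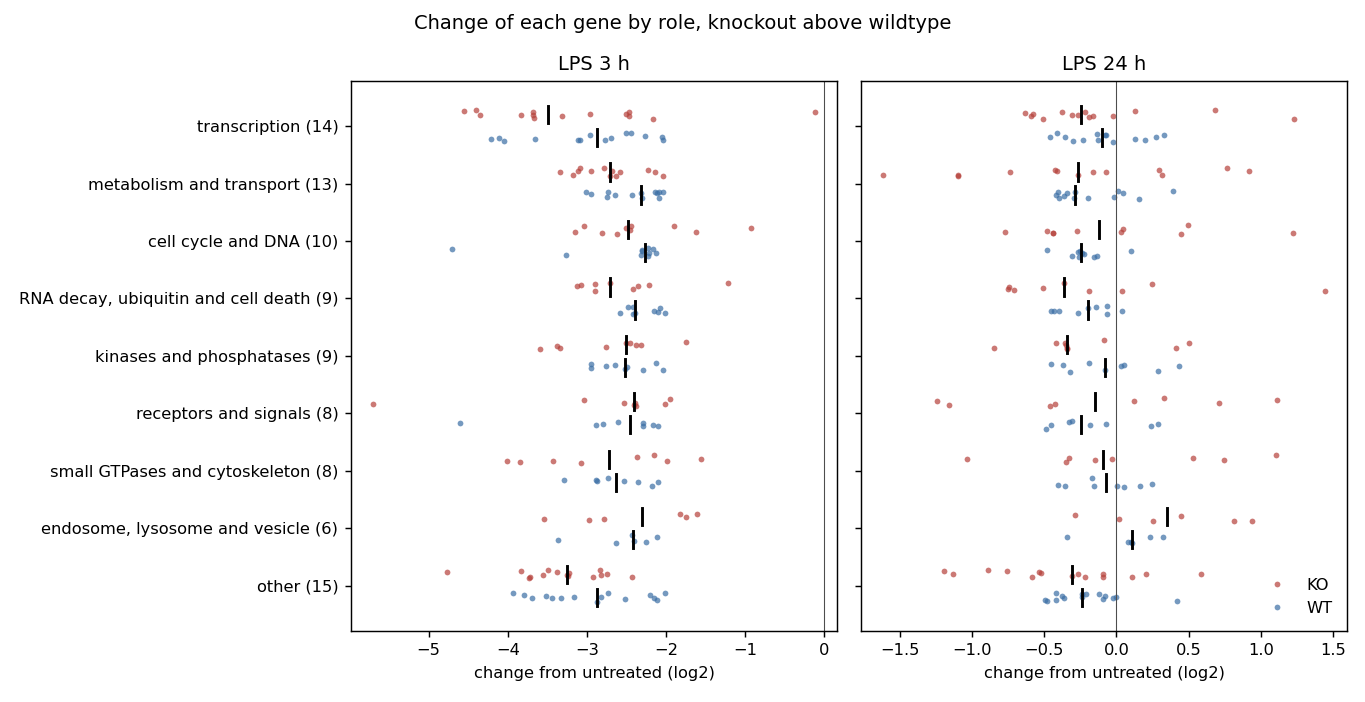
Change from untreated (log2) of each member at 3 h (left) and 24 h (right), by role with the number of genes, knockout cells in red above wildtype cells in blue; black bars are medians, and points are shifted at random up or down. Transcriptional regulators have 3 h medians of -3.49 in knockout and -2.87 in wildtype cells, and Npas4 is the red point at -0.11.

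Untreated levels of the members were spread on both sides of wildtype. Knockout samples lay below both wildtype samples for 32 members, where they did for 25.8% of all 23004 genes, and above both for 32, where they did for 33% of all genes. The median difference was 0.02, from -2.46 for Ccne2 to 1.34 for Ahrr. It was over 1 log2 unit below wildtype for 7 members, Ccne2, Spsb4, Cdca7, Npas4, Prokr1, Dtl and Dusp6, and over 1 above for Ahrr alone. The limits of the rule used these levels on the wildtype side only. A rule on wildtype falls favours high untreated wildtype levels, which tilts these counts towards knockout below wildtype. They are given without a test, and the counts past 1 log2 unit without a share over all genes.

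At 3 h, knockout samples lay below both wildtype samples for 51 of the 92 members, where they did for 26.1% of all genes, and above both for 14, where they did for 33.4%. The median difference of the levels at 3 h was -0.28, and the median difference between the knockout and the wildtype change was -0.27, with the larger fall in knockout cells for 63 members. The larger knockout fall was not particular to the members. The median difference between the changes was -0.31 for the 241 genes still below the 24 h band in wildtype cells and -0.25 for the 22 above it. Over all genes tested it was -0.01. For the members the medians of levels and of changes were -0.09 and -0.11 with the normexp background correction, and -0.12 and -0.13 with levels divided by each array's spike-in slope, a correction chosen after seeing the data. The spike-in slopes differed between the genotypes as given above. At 24 h, knockout samples lay below both wildtype samples for 37 members, where they did for 26.7% of all genes, and above both for 31, where they did for 27.5%, with a median difference of -0.04.

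**Figure D4:**
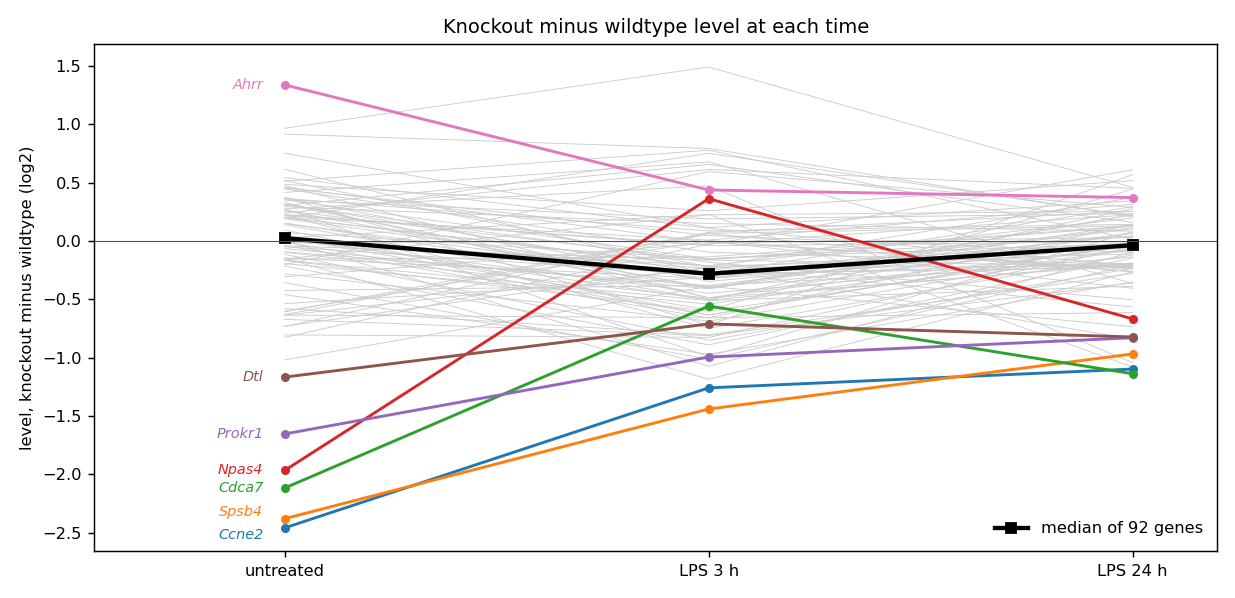
Level in knockout minus level in wildtype samples (log2, means of 2 mice) for the 92 members, untreated, at 3 h and at 24 h of LPS; grey lines are members, black squares their median and coloured lines 7 named members. The median is 0.02 untreated, -0.28 at 3 h and -0.04 at 24 h, and Ccne2, Spsb4, Cdca7 and Npas4 start between -2.46 and -1.97.

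The members were spread over the pathways listed for these cells, and few lists held more than 1. Beside the counts below, 25.7% of all genes tested in knockout cells were lower and 26.4% higher at 3 h. At 24 h the shares were 31.5% and 26%. No list was tested as a set. Of 19 circadian clock genes tested in knockout cells, among them the member Per1, 12 were lower and 4 higher at 3 h, with a median of -1.12, and 10 were lower and 3 higher at 24 h. Of 29 FOXO target genes, with the member Tsc22d3, 20 were lower and 6 higher at 3 h, with a median of -0.86, and 16 were lower and 8 higher at 24 h. Haematopoietic transcription factors included the member Maf, and of 38 tested 12 were lower and 18 higher at 3 h, against 10 and 14 at 24 h. The BCL2 family, with the member Pmaip1, had 6 lower and 5 higher of 18 at 3 h and 7 and 8 at 24 h. Cyclins and their kinase inhibitors, with the member Ccne2, had 6 lower and 10 higher of 24 at 3 h and 12 and 6 at 24 h.

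No member was in the lists of TGF-beta and BMP genes (3 lower and 11 higher of 24 at 3 h), myeloid G protein-coupled receptors (13 and 15 of 35), LXR targets (4 and 3 of 15), TLR4 pathway genes (6 and 16 of 24) or phosphoinositide signalling genes (12 and 8 of 31). At 24 h the same lists had 8 lower and 9 higher, 13 and 18, 6 and 5, 7 and 12, and 13 and 7 genes. Shares over all genes were 25.7% lower and 26.4% higher at 3 h, and 31.5% and 26% at 24 h. The medians of these 5 lists at 3 h in knockout cells lay between -0.10 and 0.63, where the median over all genes was 0.06 and that of the 92 members -2.78.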

How the data were processed

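Single-colour Agilent arrays were used, 1 for each of the 12 macrophage samples, with groups and mice taken from the labels. Per the file headers, the deposited scanner files give for each spot a processed intensity, from which the scanner program (Agilent Feature Extraction 10.7.3.1, per the submitters' processing notes) had subtracted background, with no scaling between arrays, and flags for background, saturation and outliers. The values the authors deposited as a table are log2: 99.4% to 99.9% of those for probes above background equalled, to within 0.01, the log2 processed signal of that array less a constant. Its column medians ran from -4.50 to -4.30, so it was not centred per gene. It served as an alternative.

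Control spots and outlier spots were left out, spots of a probe averaged (39429 probes), and the array's 75th percentile subtracted from log2 signals. The brightest probe, by its mean over all 12 arrays, stood for a gene. Genes were tested (23004) if 1 or more groups had both arrays above background. All 12 arrays were fitted in limma 3.58.1 (R 4.3.3; 6 residual and 2.23 prior degrees of freedom) with a mean per group. Tests were two-sided and p-values were adjusted over all genes by Benjamini-Hochberg, with a threshold of 0.05. Values after ± are standard errors. The procedure was tested on simulated data. The number of arrays limits the precision, and p-values measure the spread between 2 mice.

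Same-mouse residuals correlated with r of 0.354, 0.127 and 0.122 in knockout and 0.190, 0.128 and 0.145 in wildtype samples, in the order untreated and 3 h, untreated and 24 h, and both LPS times, and the labels give the same animal, so a fit with the mouse as a block is an alternative. Symbols of 8 of the 92 members have changed, found through RefSeq by accession for 89 members, by symbol for 2 and by synonym for 1. Members, role groups, gene lists and the printed promoters were chosen with earlier results of these data known. Named members were those with the largest wildtype falls, with the largest differences between the knockout and wildtype change at 3 h and 24 h, and with the largest called changes at 24 h, in number 12, 6 each way and 6 each way. Others are named with their role. Some genes in the counts are not reported here by name. The alternatives are other background corrections, scalings, probe rules, filters, limits and samples. Other steps used pandas 2.3.3 and numpy 2.4.6 in Python 3.11.15, and figures matplotlib 3.10.9.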

Additional observations from a re-analysis of the deposited data

Results flagged for a closer look

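For 4 members, both knockout mice stood on one side of their untreated level at 24 h and both wildtype mice on the other. The difference was not tested for any of them, because the wildtype changes chose the members.

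Cdca7 changed by 0.89 and 0.10 in the knockout mice and by -0.10 and -0.87 in the wildtype mice, a difference of 0.98 between the means. Npas4 changed by 1.40 and 1.05 in the knockout mice and by -0.13 and -0.01 in the wildtype mice, a difference of 1.30. Ahrr changed by -0.97 and -0.31 in the knockout mice and by 0.07 and 0.59 in the wildtype mice, a difference of -0.97. Ptprv changed by -0.34 and -0.35 in the knockout mice and by 0.27 and 0.60 in the wildtype mice, a difference of -0.78. Of the 4, only the knockout changes of Npas4 and Ahrr passed limma's test at 24 h. That of Ahrr was lost without the mouse of replicate 1, with knockout arrays only, without the filter on dim probes, with the mean over its probes and with the spike-in slope.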

How the results depend on the processing

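The knockout fall at 3 h and rise between 3 h and 24 h held under every alternative run: 88 to 91 of the 92 members were lower at 3 h (74 of 75 with only genes above background on all arrays) and 89 to 92 rose afterwards (75 of 75). Membership moved most: 92 genes became 59 with normexp (53 shared) and 202 with levels divided by the spike-in slope (56 shared, added after seeing the data). That division took the members' median knockout change from -2.78 to -3.49 at 3 h, but from -0.27 to -0.25 at 24 h. Membership was 234 with a fall limit of -1.5, 172 with a band from -1 to 1, and 96 and 100 with 1 wildtype mouse left out. Knockout members lower at 24 h numbered 26, 16 with knockout arrays only and 8 when also at least 2-fold. With quantile normalization 30 were lower. With the percentile over probes above background on all arrays 37 were, where 37.6% of all genes were lower. Those higher numbered 14, 4 when also 2-fold and 21 with normexp. Over all genes, those higher at 24 h were 10301 with normexp, against 5984. The members' median change was -2.25 with normexp and -3.49 with the slope at 3 h, -0.12 with normexp, -0.39 with the percentile over probes above background on all arrays and -0.28 to -0.16 with a mouse left out at 24 h, and 2.14, 3.33 and 2.49 to 2.63 for 24 h against 3 h with normexp, with the slope and with a mouse left out. With the mouse as a replicate block (paired samples), 91 members were lower at 3 h, and 27 were lower and 18 higher at 24 h; it gained Ccne2 at both times and Dtl, Anubl1, Map3k9, Nfkbil2 and Trim45 at 24 h, and lost Ccdc151 at 24 h. At 24 h the values of Endou, Slc46a2 and Fam188b turned with normexp, to 0.11, 0.23 and 0.07. Of the other results of the members named by the rule, 1036 kept direction and side of the threshold, 29 lost the call and 16 gained it. With a mouse left out, the lone arrays are assumed to vary like the wildtype groups. The causes were not tested. Dim probes limit the 3 h values.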
